A study of Rattus norvegicus with 12 samples.

Results

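Elastic fibre and lysyl oxidase genes were followed in cells of the rat cervix before and near the end of pregnancy, with and without removal of macrophages (Mφs). The 10 genes are Eln, Fbn1, Fbn2, Fbln1, Fbln2, Fbln5, Lox, Loxl1, Loxl2 and Emilin1. They were found by gene name in the array files, which gave 11 probes among 30367 on the array, 1 for each gene and 2 for Emilin1. The array held 26612 gene names in all.

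The cells came from 12 adult female Sprague Dawley rats, 1 array for each rat and 3 rats in each of 4 groups. D21 rats were killed on day 21 after breeding, the day before expected birth, and NP rats were not pregnant and in proestrus. All cervices, in every group, were minced and dispersed with collagenase B and DNAase, so no group holds undispersed tissue. Whole D21 cervix (rats 5, 6 and 7) and whole NP cervix (rats 8, 9 and 10) were frozen after dispersal. Mφ-depleted D21 cervix (rats 1, 2 and 4) and Mφ-depleted NP cervix (rats 5, 6 and 7) were first incubated with the ED1 antibody and Dynabeads and set against a magnet. The whole and Mφ-depleted cells of a group are therefore from different animals, and the whole cells did not pass through the antibody and bead steps. The rats numbered 5, 6 and 7 in whole D21 and in Mφ-depleted NP cervix are different animals.

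Elastic fibres let a tissue recoil after it is stretched. Their core is elastin, the product of Eln, which is deposited on a scaffold of fibrillin microfibrils made from Fbn1 and Fbn2. Fibulins (Fbln1, Fbln2, Fbln5) and Emilin1 are further proteins of elastic fibres, and Fbln5 is needed to bring tropoelastin and Loxl1 to the microfibril. Lysyl oxidases (Lox, Loxl1, Loxl2) oxidise lysines so that elastin and collagen become cross-linked. Fibroblasts and smooth muscle cells are the main makers of these proteins in the cervix, where elastic fibres and collagen carry the load of pregnancy.

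Each value below is what 1 probe of 60 bases captured. Sequences of 5 probes are shown because the differences between members rest on these stretches of transcript, with positions in the rn4 build as the array files give them. The Fbln2, Fbln5 and Loxl1 probes each have at least 1 forward reading frame without a stop codon, as do the Eln probe and both Emilin1 probes. Of all the members' probes, only that of Fbln1 has none. The files do not say which exon or which part of a transcript a probe lies in. The Eln probe covers 142 bases of genome, 82 more than its own length.
Eln, chr12:23067308-23067449, + strand: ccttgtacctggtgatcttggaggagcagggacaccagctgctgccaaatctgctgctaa
Fbln2, chr4:125440452-125440511, + strand: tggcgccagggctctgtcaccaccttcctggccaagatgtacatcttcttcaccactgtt
Fbln5, chr6:126026588-126026647, - strand: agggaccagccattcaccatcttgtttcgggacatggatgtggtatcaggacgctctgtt
Loxl1, chr8:62088318-62088377, - strand: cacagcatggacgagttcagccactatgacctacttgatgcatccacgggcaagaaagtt
Emilin1, dimmer probe, chr6:25441628-25441687, - strand: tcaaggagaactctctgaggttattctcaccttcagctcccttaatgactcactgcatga

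The brighter Emilin1 probe lies at chr6:25438941-25438964 on the - strand, a span of 24 bases for a probe of 60. It holds the letters AATAAA, the usual polyadenylation signal, from base 44, and ends in 6 T. Of the 10 genes, 5 had an entry in the RefSeq promoter table of the GRCr8 build (Fbn1, Fbn2, Fbln2, Fbln5 and Loxl1). The 250 bases before the start were searched on both strands for 3 motifs. The GC box, spelled GGGCGG, was present in Fbln2 and Fbln5 and in 30.5% of all 33469 promoters. The TATA box, spelled TATAAA, was in 0 of the 5 and 12.9% of all. The AP-1 site, spelled TGANTCA with N for any base, was in 0 of the 5 and 6.34% of all. The fibulin pair with a GC box is printed, since Fbln2 and Fbln5 differed in the comparisons below, with the GC boxes in capitals.
Fbln2, chr4:125261409-125261658, + strand, GRCr8: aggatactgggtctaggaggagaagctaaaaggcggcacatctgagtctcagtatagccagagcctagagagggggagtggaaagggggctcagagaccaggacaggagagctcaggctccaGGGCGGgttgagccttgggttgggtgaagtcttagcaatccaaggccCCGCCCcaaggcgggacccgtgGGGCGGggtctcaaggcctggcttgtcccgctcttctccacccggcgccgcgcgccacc
Fbln5, chr6:126742707-126742956, - strand, GRCr8: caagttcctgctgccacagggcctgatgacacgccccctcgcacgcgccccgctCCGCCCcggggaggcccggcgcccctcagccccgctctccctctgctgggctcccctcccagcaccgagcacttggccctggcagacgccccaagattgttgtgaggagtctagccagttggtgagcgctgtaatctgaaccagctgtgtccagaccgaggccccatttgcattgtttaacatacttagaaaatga

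Levels are log2 intensities scaled to each array's own 75th percentile, so that 0 is that percentile, and levels of different probes are not compared with each other. The scanner software rated from 44.9% (the lowest array) to 61.8% (the highest) of probes as well above background. The number of arrays limits the precision. Depletion lowered 14 of 15 Mφ markers in D21 rats and 12 of the 13 tested in NP rats. Adgre1, a surface receptor of Mφs, was detected above background in none of the 6 Mφ-depleted rats, so whole cervix was higher by at least 37.0-fold (D21) and at least 39.6-fold (NP). For such bounds the dim group counts at the higher of its own signal and the dimmest detected probe of the array. Csf1r, the receptor that Mφs need to survive, was well above background on 1 of 3 arrays of each Mφ-depleted group. Cd68, which encodes the antigen of the ED1 antibody, differed by -0.15 in D21 and 0.54 in NP rats on the log2 scale (adjusted p = 0.882 and 0.530 from limma). Mφ-depleted D21 rat 4 stood apart from rats 1 and 2 of its group for several members, and some results are also given without it.

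**Figure D1:**
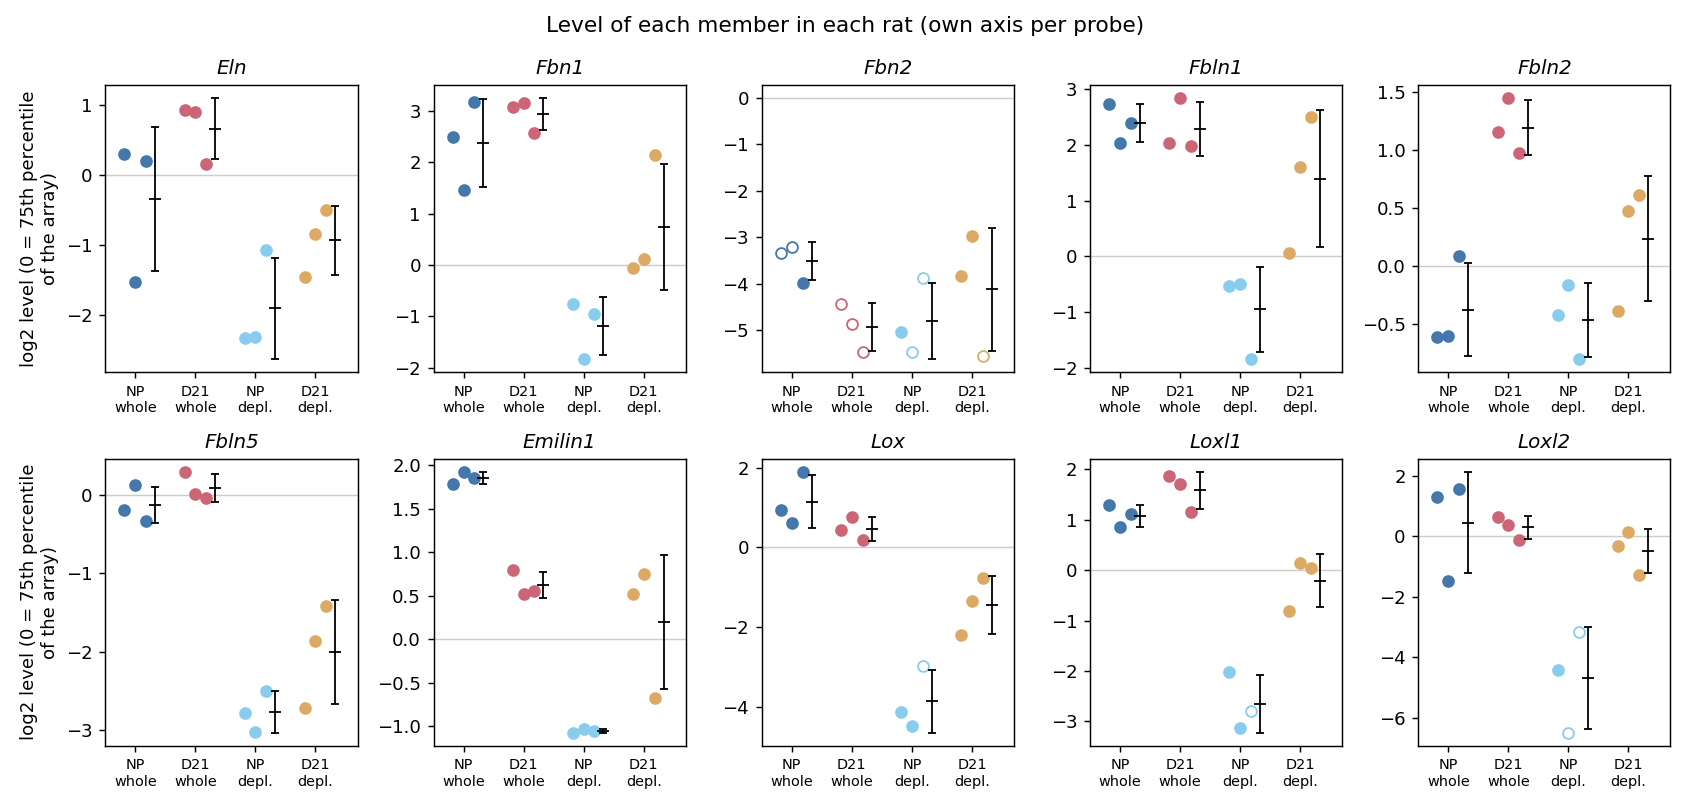
Log2 level of each of the 10 genes in each rat, with 0 as the 75th percentile of the array and an axis of its own for each probe. Points are rats in order of rat number, open points are not well above background, and bars are the mean ± SD of 3 rats. The 3 Mφ-depleted NP rats sit below all whole rats for Fbn1, Fbln1, Fbln5, Emilin1, Lox, Loxl1 and Loxl2, but not for Fbln2.

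In whole cervix, the question was whether late pregnancy changes the transcripts of the elastic fibre. Fbln2, a fibulin of microfibrils and basement membranes, was 2.97-fold higher in D21 than in NP rats, and Emilin1, a glycoprotein at the elastin-microfibril border, was 2.35-fold lower. Neither Eln nor any fibrillin or lysyl oxidase gene was called. A gene was called where limma gave an unadjusted p under 0.01 and the change reached 2-fold, the threshold of the Methods. Of the 9 members tested, 1 was called higher, where 5.39% of the 14034 genes tested were, and 1 was called lower, where 3.1% were. The median difference of the 9 was 0.22 on the log2 scale, beside -0.08 over all genes. Cell type markers moved in this comparison too, with 7 of 10 epithelial markers called higher in D21 rats (median 1.57) and 3 of 10 smooth muscle markers called lower (median -0.83), and their part in the result was not tested.

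Fbln2 stood at 1.16, 1.45 and 0.97 in the 3 D21 rats and at -0.61, -0.60 and 0.09 in the 3 NP rats. All D21 rats were above all NP rats, a difference of 1.57 (standard error 0.32, adjusted p = 0.0201 from limma). Emilin1 stood at 0.79, 0.52 and 0.55 in D21 and at 1.78, 1.92 and 1.86 in NP rats by its brighter probe. The groups again did not overlap, and Emilin1 fell by 1.23 (standard error 0.32, adjusted p = 0.0476 from limma). Among all genes tested, 44.3% did not overlap between these groups. The other Emilin1 probe gave -0.63 (adjusted p = 0.345 from limma), and the call was lost without whole D21 rat 6 or rat 7 (-1.18 and -1.20).

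Eln stood at 0.92, 0.91 and 0.16 in D21 rats and at 0.30, -1.54 and 0.20 in NP rats. NP rat 9 lay far below the other NP rats, and the groups overlapped. The difference of 1.01 had a 95% interval from -0.13 to 2.15 (adjusted p = 0.277 from limma), and it was 0.41 without NP rat 9. Fbn1 gave a difference of 0.56 (-0.73 to 1.85), Fbln1 of -0.11 (-1.35 to 1.14) and Fbln5 of 0.22 (-0.47 to 0.92). For Fbln5, needed for elastin assembly, the interval leaves out a change of 2-fold in either direction.

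No lysyl oxidase passed the test. Lox, the enzyme that cross-links elastin and collagen, had a difference of -0.69 (-1.74 to 0.36), Loxl1, the enzyme tied to elastin upkeep, of 0.50 (-0.27 to 1.27), and Loxl2 of -0.16 (-2.10 to 1.77). Loxl2 stood at 1.29, -1.48 and 1.55 in the NP rats, so that rat 9 was again the low one, and at 0.63, 0.38 and -0.14 in D21 rats. Within the slide that held all whole D21 arrays and NP rat 10, Fbln2 differed by 1.11, Emilin1 by -1.24 and Lox by -1.44. With slide as a block, Lox was called lower in D21 rats and Emilin1 was not. The block gave the same differences as that slide alone, so it rests on NP rat 10 and is no separate check. For Lox that rat was the highest of the NP rats (1.90, beside 0.94 and 0.60).

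Fbn2, the fibrillin of developing tissue, was well above background on 4 of the 12 arrays and on all 3 arrays of no group, so it was not tested. These arrays were whole NP rat 10, Mφ-depleted NP rat 5 and Mφ-depleted D21 rats 1 and 2. It was well above background on none of the 3 whole D21 arrays. Measured levels lay between -3.99 and -3.22 in whole NP, -5.48 and -4.45 in whole D21, -5.48 and -3.89 in Mφ-depleted NP and -5.57 and -2.97 in Mφ-depleted D21 rats, and no fold is given between them.

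In NP rats, the cells left after bead separation held far less transcript of most of these genes than whole cervix. Fbn1 was 11.8-fold, Fbln1 10.2-fold, Emilin1 7.52-fold and Fbln5 6.2-fold higher in whole NP cervix, each well above background on all arrays of both groups. Lox was 32.1-fold and Loxl1 13.3-fold higher by their measured means, with 2 of 3 Mφ-depleted NP arrays well above background. Loxl2, a lysyl oxidase best known for cross-linking collagen IV and other collagens, was well above background on 1 of these 3 arrays, so that the size of its difference is uncertain. Fbln2 was the exception, at 1.06-fold, and Eln, at 2.96-fold, narrowly missed the unadjusted limit and was not called (adjusted p = 0.0379 from limma). In total, 7 of the 9 members tested were called higher in whole NP cervix and 0 lower, where 13.6% of 13380 genes were called higher and 10.8% lower. Of these, Lox, Loxl1 and Loxl2 entered the test through the whole NP group, in which they were higher. The median over the members was 3.35 on the log2 scale, beside -0.04 over all genes.

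Lox stood at 0.94, 0.60 and 1.90 in whole NP rats and at -4.12, -4.48 and -2.98 in Mφ-depleted NP rats. The highest Mφ-depleted rat was more than 3 log2 units below the lowest whole rat, and its probe was not well above background on that array, of rat 7. The difference was 5.01 (standard error 0.48, adjusted p = 2.28e-05 from limma). Loxl1 stood at 1.29, 0.85 and 1.10 in whole and at -2.01, -3.14 and -2.80 in Mφ-depleted rats, which differ by 3.73 (standard error 0.35, adjusted p = 2.12e-05 from limma), and rat 7 was again not well above background. Loxl2 spread most. It stood at -4.43, -6.49 and -3.15 in Mφ-depleted NP rats, where only the array of rat 5 was well above background, and the difference of 5.14 had a standard error of 0.88 (adjusted p = 0.00114 from limma). Without whole NP rat 9, the low one for Loxl2, the difference was 6.11.

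Fbn1, the main fibrillin, stood at 2.48, 1.46 and 3.17 in whole NP rats and at -0.77, -1.83 and -0.96 in Mφ-depleted rats. Fbln1, a fibulin that binds elastin and fibronectin, stood at 2.74, 2.04 and 2.40 against -0.52, -0.49 and -1.84. Neither gene had overlapping groups. The differences were 3.56 (standard error 0.59, adjusted p = 0.000886 from limma) for Fbn1 and 3.35 (standard error 0.57, adjusted p = 0.00105 from limma) for Fbln1. Fbln5 fell from between -0.33 and 0.12 in whole to between -3.02 and -2.50 in Mφ-depleted rats (adjusted p = 0.000107 from limma). Emilin1 fell from between 1.78 and 1.92 to between -1.08 and -1.03, the smallest spread of any member in either NP group (adjusted p = 6.02e-05 from limma).

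Fbln2 stood at -0.61, -0.60 and 0.09 in whole and at -0.42, -0.17 and -0.80 in Mφ-depleted NP rats. The groups lay on top of each other, and the 95% interval of the difference, from -0.61 to 0.79, leaves out a change of 2-fold in either direction. Eln stood at 0.30, -1.54 and 0.20 in whole and at -2.34, -2.32 and -1.08 in Mφ-depleted rats, and whole NP rat 9 lay among the Mφ-depleted rats. Without that rat Eln was called, with a difference of 2.16 (adjusted p = 0.00484 from limma), and it was called without Mφ-depleted NP rat 7 (1.99). The groups did not overlap for 7 of the 9 members, where 23% of genes had every whole rat above every Mφ-depleted rat. On the third scan day, which held all whole arrays and Mφ-depleted NP rat 7, the 7 called members differed by between 2.36 (Fbln5) and 4.24 (Fbln1). Eln differed by 0.73 there.

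In D21 rats 4 of the 7 genes called in NP rats were lower after bead separation. Fbn1 was 4.60-fold, Fbln5 4.26-fold, Lox 3.71-fold and Loxl1 3.45-fold higher in whole than in Mφ-depleted D21 cervix, and these were the members called, of the 9 tested. Among 14222 genes, 10.1% were called higher and 7.76% lower, and 0 members were lower. The median over the members was 1.60 on the log2 scale, beside -0.06 over all genes. Every whole D21 rat was above every Mφ-depleted D21 rat for 6 members, Eln, Fbn1, Fbln2, Fbln5, Lox and Loxl1, which was so for 21.3% of genes.

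Fbln5 showed the clearest separation. It stood at 0.29, 0.01 and -0.04 in whole and at -2.72, -1.87 and -1.42 in Mφ-depleted D21 rats, a difference of 2.09 (standard error 0.32, adjusted p = 0.00181 from limma). Loxl1 stood at 1.87, 1.71 and 1.16 against -0.81, 0.13 and 0.05, a difference of 1.79 (standard error 0.35, adjusted p = 0.00691 from limma). Lox stood at 0.43, 0.77 and 0.18 against -2.20, -1.33 and -0.77 (difference 1.89, adjusted p = 0.0203 from limma). In each of the 3 genes rat 1 was the lowest of the Mφ-depleted D21 rats.

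Fbn1 stood at 3.08, 3.16 and 2.57 in whole and at -0.06, 0.11 and 2.15 in Mφ-depleted D21 rats, where rat 4 was far above rats 1 and 2. The difference was 2.20 (standard error 0.59, adjusted p = 0.0246 from limma) and was 2.91 without rat 4. Eln stood at 0.92, 0.91 and 0.16 against -1.47, -0.85 and -0.50. It missed the threshold with a difference of 1.60 and an adjusted p of 0.0468 from limma. Fbln2 stood at 1.16, 1.45 and 0.97 against -0.38, 0.48 and 0.61, and its difference of 0.96 was also not called (adjusted p = 0.0523 from limma).

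The other 3 members overlapped between the groups. Fbln1 stood at 2.03, 2.85 and 1.99 in whole and at 0.07, 1.60 and 2.51 in Mφ-depleted D21 rats, where rat 4 again was high, and the difference was 0.89 (-0.35 to 2.14), or 1.45 without rat 4 (adjusted p = 0.0553 from limma). Loxl2 stood at 0.63, 0.38 and -0.14 against -0.33, 0.14 and -1.27, a difference of 0.78 (-1.16 to 2.71). Emilin1 stood at 0.79, 0.52 and 0.55 against 0.52, 0.75 and -0.68 by its brighter probe, a difference of 0.42 (-0.28 to 1.13) that was -0.016 without rat 4.

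Mφ-depleted D21 rat 4 was the only one of its group scanned on the same day as the whole arrays. Against that rat alone Fbn1 differed by 0.79, Fbln5 by 1.51, Lox by 1.23 and Loxl1 by 1.53. With scan day as a block 2 calls were left, Fbln5 and Loxl1, and with slide as a block 1, Fbln5, while Lox turned to -0.11. No slide held both whole and Mφ-depleted D21 arrays. The slide of the whole D21 arrays was tied to the others only through whole NP rat 10. The slide block is therefore no comparison within slides here. Without Mφ-depleted D21 rat 1 or without whole D21 rat 6, Fbn1 (1.81 and 2.09) and Lox (1.51 and 1.74) lost their calls. The Methods' own test called 0 members in D21 rats and 6 in NP rats.

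An interaction term asked whether the separation took unequal amounts in the pregnant and nonpregnant state. Emilin1, Lox, Loxl1 and Loxl2 were called, all with a larger loss in NP rats. These are 4 of the 9 members tested, where 5.01% of 14492 genes were called in that direction and 2.44% in the other. After adjustment over all genes 2 of them held, Emilin1 (-2.49, standard error 0.46, adjusted p = 0.0205 from limma) and Lox (-3.11, standard error 0.68, adjusted p = 0.0404 from limma), and 1.99% of genes did so. Loxl1 gave -1.94 (adjusted p = 0.071 from limma) and Loxl2 -4.37 (adjusted p = 0.0986 from limma). Lox and Loxl1 were well above background on 2 and Loxl2 on 1 of the 3 Mφ-depleted NP arrays. These lysyl oxidases entered the test through the other groups, in which they were higher, so the sizes of their interactions are uncertain. Loxl2 lost its call with slide (-5.26) or scan day (-4.17) as a block and without any one of 6 rats, which were Mφ-depleted NP rat 6, Mφ-depleted D21 rats 1 and 2, whole NP rats 8 and 10 and whole D21 rat 7 (-4.29 to -3.47). The dimmer Emilin1 probe gave -1.29 (adjusted p = 0.214 from limma), and the brighter one gave -2.93 without Mφ-depleted D21 rat 4. Cell type markers were called in the same direction, 7 of 10 for fibroblasts (median -2.80) and 6 of 10 for smooth muscle (median -2.25). The median of the members was -1.94, and the part of these markers in the result was not tested.

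The whole-minus-depleted difference of Eln was 1.60 in D21 and 1.57 in NP rats, neither called, with an interaction of 0.04. Its 95% interval ran from -1.58 to 1.66, so a difference of 2-fold either way was within reach of the error. Fbln5 gave an interaction of -0.54 (-1.53 to 0.44). Fbln1 gave -2.45 and just missed the threshold (adjusted p = 0.139 from limma), and it was called without Mφ-depleted D21 rat 1 (-3.12) and with scan day as a block (-3.18). That rat was the only array of its scan day, so the block takes it out of the estimate and is no separate check. Without Mφ-depleted D21 rat 4 the Fbln1 value was -1.90. Fbn1 gave -1.35 (-3.19 to 0.48), and Fbln2 gave 0.87 (-0.13 to 1.87), in the opposite direction to the lysyl oxidases.

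Among the cells left after separation, the lysyl oxidase transcripts were higher in D21 than in NP rats. Loxl1 was 5.43-fold and Lox 5.37-fold higher in Mφ-depleted D21 than in Mφ-depleted NP cervix, where each was well above background on 2 of 3 arrays. Loxl2 was also higher, and the size of its difference is uncertain, since only Mφ-depleted NP rat 5 had it well above background. These 3 genes entered the test through the D21 group. Fbln1 was 5.09-fold, Fbn1 3.78-fold and Emilin1 2.38-fold higher, detected on all 6 arrays. That made 6 of 9 members higher and 0 lower, where 5.47% of 13359 genes were called higher and 2.07% lower. With detection on all 12 arrays required, 3 members were called. These comparisons share their arrays with those above, and the members' own values are the ones already given. The median over the members was 1.92 on the log2 scale, beside 0.02 over all genes.

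Loxl2 lay between -1.27 and 0.14 in Mφ-depleted D21 rats and between -6.49 and -3.15 in Mφ-depleted NP rats, a difference of 4.20 (standard error 0.88, adjusted p = 0.0206 from limma). Loxl1 differed by 2.44 (standard error 0.35, adjusted p = 0.00269 from limma), Lox by 2.42 (standard error 0.48, adjusted p = 0.015 from limma) and Fbln1 by 2.35 (standard error 0.57, adjusted p = 0.0395 from limma). Fbln1 differed by 1.79 without Mφ-depleted D21 rat 4. Every D21 rat was above every NP rat for 6 of the 9 members tested, where 9.54% of genes did so. These are the 6 called members, so the lack of overlap is no separate support for the calls. Fbn1 did not hold after adjustment (adjusted p = 0.0952 from limma) and was not called without Mφ-depleted D21 rat 4 (1.21), and Emilin1 was at the edge (adjusted p = 0.0494 from limma). The dimmer Emilin1 probe gave 0.66 (adjusted p = 0.315 from limma), and the call of the brighter one was lost without Mφ-depleted D21 rat 1 (1.09) or rat 2 (0.97). Without rat 4 of that group the brighter probe gave 1.69. Eln gave 0.97 (-0.16 to 2.11), Fbln5 0.76 (0.07 to 1.45) and Fbln2 0.70 (-0.00 to 1.40), none of them called. With slide or scan day as a block Fbln5 (1.05) and Fbln2 (1.05) were called, with adjusted p of 0.0652 and 0.0447 for Fbln5 and 0.0924 and 0.112 for Fbln2 from limma. Either block takes Mφ-depleted D21 rat 1 out of the estimate, and both genes were also called without that rat (1.12 and 1.01).

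Both batches that hold Mφ-depleted arrays of both states gave the same direction for the called members. On slide 1, D21 rat 2 was above NP rats 5 and 6 by 5.60 for Loxl2, 2.97 for Lox, 2.71 for Loxl1, 2.11 for Fbln1, 1.81 for Emilin1 and 1.41 for Fbn1. On slide 3, D21 rat 4 was above NP rat 7 by 1.88, 2.21, 2.85, 4.35, 0.37 and 3.11 for the same genes in that order. The Methods' own test called 1 of the members, Loxl1.

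**Figure D2:**
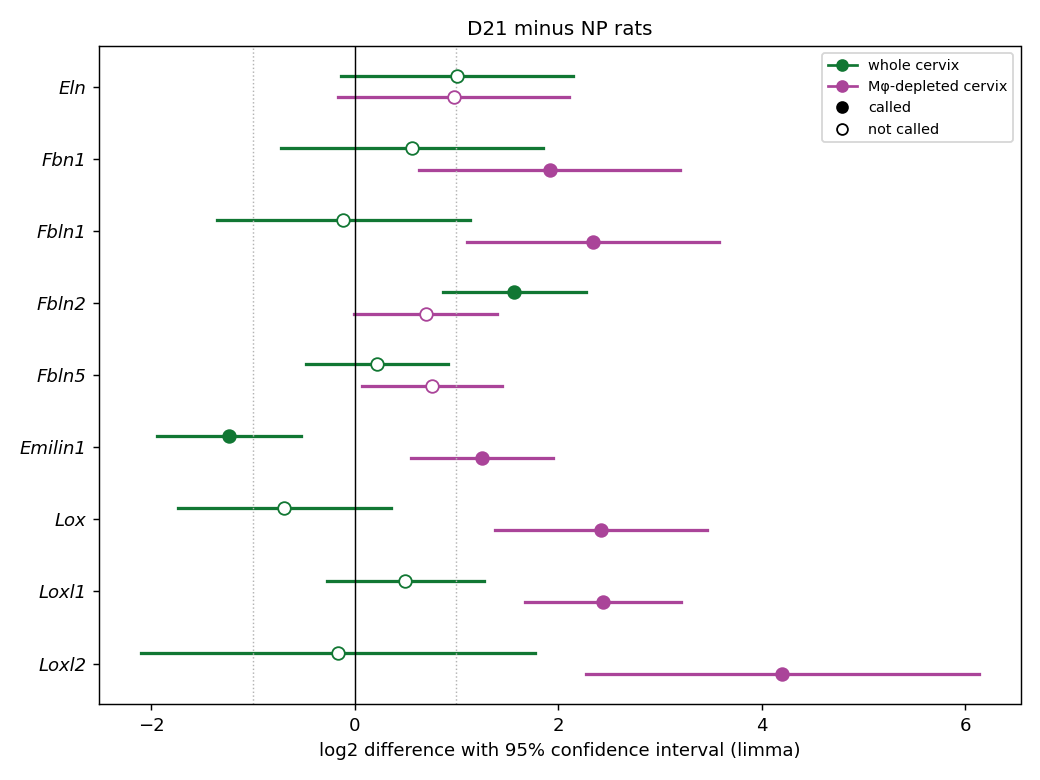
Difference in log2 level between D21 and NP rats for the 9 genes tested, in whole and in Mφ-depleted cervix, with limma's 95% confidence interval. Filled points passed the threshold. Filled points are Fbln2 and Emilin1 in whole cervix and Lox, Loxl1, Loxl2, Fbln1, Fbn1 and Emilin1 in Mφ-depleted cervix, with Emilin1 below 0 in whole and above 0 in Mφ-depleted cervix by its brighter probe.

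The order of the groups differed between members. For Eln the means ran from whole D21 (0.66 ± 0.44, SD, n = 3) over whole NP (-0.35 ± 1.03) and Mφ-depleted D21 (-0.94 ± 0.49) to Mφ-depleted NP (-1.91 ± 0.72). Only the last of these steps, from Mφ-depleted D21 to Mφ-depleted NP, was larger than the SD of the groups on either side, and neighbouring groups overlapped at each step. Lox ran from whole NP (1.15 ± 0.67) over whole D21 (0.46 ± 0.30) and Mφ-depleted D21 (-1.43 ± 0.72) to Mφ-depleted NP (-3.86 ± 0.78). For Lox both whole groups overlapped and each later step was free of overlap. Fbln2 alone had Mφ-depleted D21 (0.23 ± 0.54) above whole NP (-0.38 ± 0.40), with some overlap, and whole NP next to Mφ-depleted NP (-0.46 ± 0.32).

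The 2 probes of Emilin1 gave the same call in NP rats and different calls in D21 rats. Whole NP cervix was higher than Mφ-depleted NP cervix by 2.91 with the brighter and by 3.86 with the dimmer probe (adjusted p = 2.41e-05 from limma). In D21 rats the brighter probe gave 0.42 and the dimmer probe 2.56 (standard error 0.37, adjusted p = 0.00135 from limma). With the dimmer probe the whole D21 rats stood at -0.15, -0.75 and -0.54 and the Mφ-depleted D21 rats at -3.63, -3.43 and -2.07, with no overlap. Mφ-depleted D21 rat 4 was the lowest of its group with the brighter probe and the highest with the dimmer one.

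**Figure D3:**
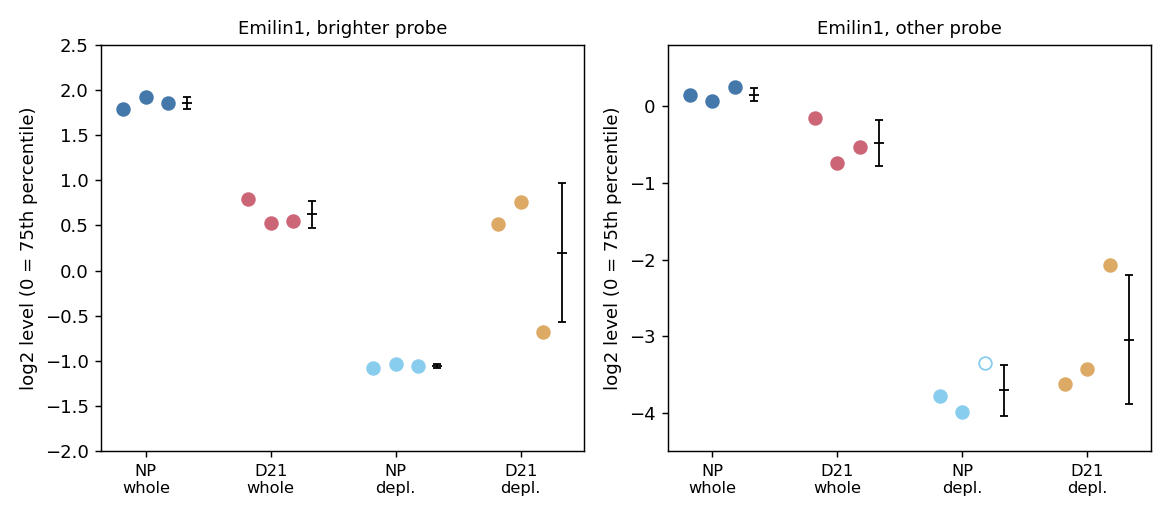
Log2 level of Emilin1 in each rat by its brighter probe and by its other, dimmer probe, with 0 as the 75th percentile of the array. Points are rats in order of rat number, the open point is not well above background, and bars are the mean ± SD of 3 rats. With the brighter probe, Mφ-depleted D21 rats 1 and 2 (0.52 and 0.75) lie near the whole D21 rats and rat 4 (-0.68) lies below them. With the other probe all Mφ-depleted D21 rats lie at or below -2.07.

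Markers of stromal cells moved with the members. In NP rats 9 of 10 fibroblast markers and 10 of 10 smooth muscle markers were called higher in whole cervix, with medians of 4.48 and 4.91 on the log2 scale. In D21 rats 5 of 10 and 8 of 10 were, with medians of 1.90 and 2.63. The mean level of the fibroblast list ranged from 3.37 to 3.78 in whole NP, 3.44 to 3.82 in whole D21, -1.82 to -0.54 in Mφ-depleted NP and 1.40 to 2.10 in Mφ-depleted D21 rats. The smooth muscle list ranged from 4.10 to 4.59, 3.37 to 3.78, -0.70 to -0.21 and 0.27 to 1.41 in the same order. Fewer stromal cells and less RNA per stromal cell cannot be told apart in these samples.

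Epithelial markers went the other way in NP rats, with 6 of 10 called lower and 0 higher in whole cervix (4 lower and 1 higher in D21 rats). Their list mean was 2.85 to 3.12 in whole NP and 4.30 to 4.81 in Mφ-depleted NP rats. Immediate-early genes, which rise within minutes of cell stress, were all lower in whole cervix, 8 of 8 tested in each state, with list means from -0.996 to -0.166 in whole and from 1.49 to 2.82 in Mφ-depleted rats. The part of stromal, epithelial and immediate-early changes in the members' results was not tested.

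Set against the mean of the fibroblast list in the same rat, the members differed from each other. In NP rats the whole-minus-depleted difference became 0.46 for Lox, 0.59 for Loxl2 and -0.82 for Loxl1, where a value below 0 is a smaller loss than that of the fibroblast markers. Of this list, Fap was well above background on 1 and Thy1, Postn and Dpt on 2 of the 3 Mφ-depleted NP arrays. Values set against the list in NP rats are uncertain to that extent. Fbn1 gave -0.99 and Fbln1 -1.20, and the rats overlapped for these genes, Lox and Loxl2. Emilin1 gave -1.64, Fbln5 -1.92, Eln -2.98 and Fbln2 -4.46, and for these genes and Loxl1 the groups did not overlap. In D21 rats Lox (0.09), Loxl1 (-0.02), Fbln5 (0.28), Fbn1 (0.40) and Eln (-0.20) stayed within 0.40 of the list, with overlapping rats. Loxl2 (-1.03) and Fbln1 (-0.91) also overlapped, and Emilin1 (-1.38) and Fbln2 (-0.85) did not. Against the smooth muscle list all 9 tested members were below 0 in D21 rats, from -2.43 (Emilin1) to -0.65 (Fbn1), and Fbn1 was the only one of them with overlapping rats.

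The same was done for the Mφ-depleted groups, with the same limit in Mφ-depleted NP rats. Relative to the fibroblast list the D21-minus-NP difference was -0.34 for Lox, -0.32 for Loxl1 and 1.44 for Loxl2, with overlapping rats for each. For Eln (-1.79), Fbln2 (-2.06), Fbln5 (-1.997) and Emilin1 (-1.51) it turned negative, without overlap. Relative to the smooth muscle list the same differences were 1.25 for Lox, 1.27 for Loxl1 and 3.03 for Loxl2, free of overlap, and -0.20 for Eln, -0.47 for Fbln2, -0.41 for Fbln5 and 0.08 for Emilin1, with overlap. Fbn1 was at -0.84 against the fibroblast and 0.75 against the smooth muscle list, and Fbln1 at -0.41 and 1.17, all with overlap. The sign thus differed between the lists for Lox, Loxl1, Emilin1, Fbn1 and Fbln1. In whole cervix Fbln2 was higher in D21 rats against both lists (1.55 and 2.40) without overlap.

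**Figure D4:**
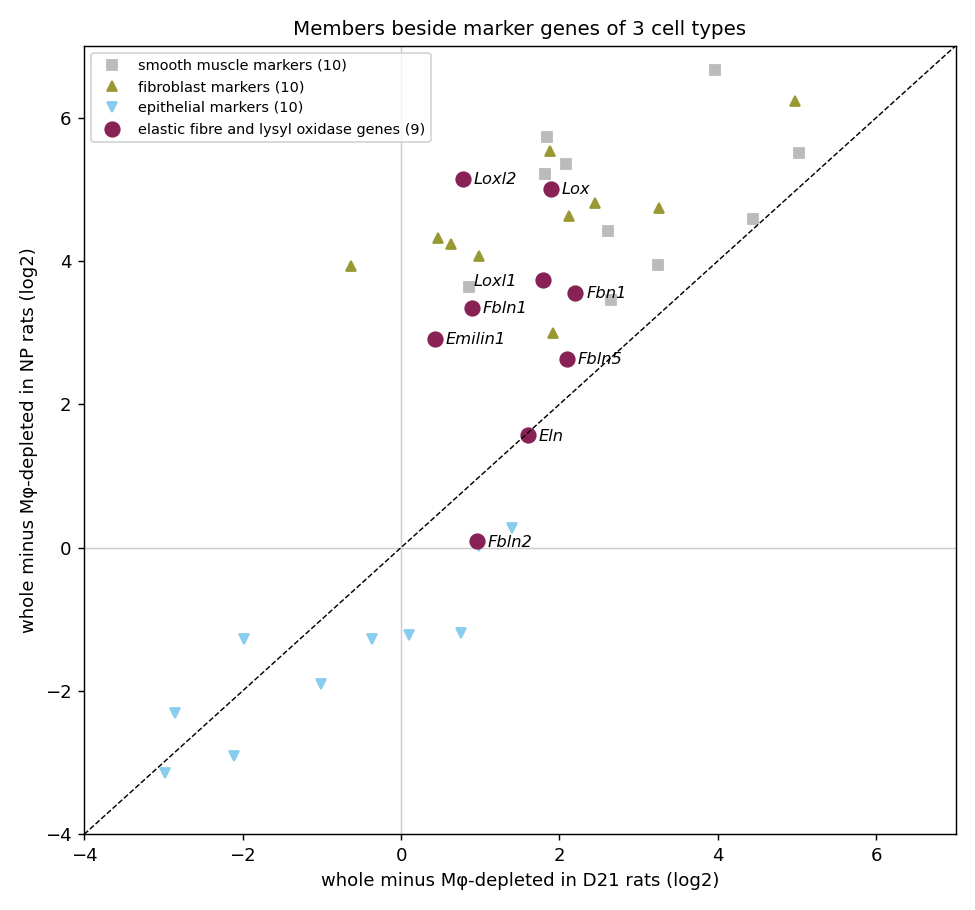
Whole-minus-depleted difference in log2 level in D21 rats (x axis) and NP rats (y axis) for the 9 tested members and for 10 marker genes each of fibroblasts, smooth muscle and epithelium. The dashed line marks equal differences. Lox sits among fibroblast and smooth muscle markers, Eln lies on the line and Fbln2 close to the 0 line of NP rats. The height of Loxl2 is uncertain, since it was well above background on 1 of 3 Mφ-depleted NP arrays.

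Other genes of elastic fibre assembly were taken from a list of 26, of which 22 were on the array by name. In NP rats 9 of 17 tested were called higher in whole cervix and 0 lower, with a median of 1.78. Thsd4 of the list had no probe of this name and is outside that count. The paper lists THSD4 among genes lower in whole than in Mφ-depleted NP cervix. The other genes that were called included those named next. The genes called higher included Mfap2 (5.39), Mfap4 (4.92) and Mfap5 (3.81), proteins bound to microfibrils, and Ltbp2 (4.96), a latent TGF-beta binding protein. The lysyl oxidase Loxl3 (3.73) and the collagen and elastin chaperone Fkbp10 (3.45) were also among them. Mfap2 and Ltbp2 were well above background on 2 and Loxl3 on 1 of the 3 Mφ-depleted NP arrays. In D21 rats 8 of 21 were called higher and 0 lower, with a median of 0.57, led by Ltbp2 (3.08), Mmrn1 (2.76), Ltbp1 (2.54), Mfap4 (2.45), Fkbp10 (1.94) and Fn1 (1.66), the gene of fibronectin. In whole cervix 0 of 20 were higher and 1 lower in D21 rats, Ltbp1 (-1.12, adjusted p = 0.0553 from limma), with a median of -0.16.

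Between the Mφ-depleted groups, 6 of 19 genes of the assembly list were higher and 2 lower in D21 rats, with a median of 1.11. Mfap2 (3.28), Mfap5 (3.13), Fn1 (2.13) and Efemp2 (2.07), the fibulin that recruits Lox, were higher, with Loxl3 (1.52) and Fkbp10 (1.11). Ltbp1 (-1.88) and Mmrn1 (-1.79), an emilin-family protein of platelets and endothelium, were lower. The interaction called 5 of 21, all with a larger loss in NP rats, with a median of -0.75: Mfap2 (-4.02, adjusted p = 0.00361 from limma), Mfap5 (-3.33), Efemp2 (-2.88), Mfap4 (-2.47) and Loxl3 (-2.14).

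Of 18 proteases and inhibitors linked to elastin breakdown, 13 were tested in whole cervix. Serpina1, the alpha-1-antitrypsin that blocks neutrophil elastase, was higher in D21 rats (2.44, adjusted p = 0.0232 from limma), and it was the only one of the 13 called, with a median of 0.20. In NP rats depletion lowered 9 of 13 and raised 0, with a median of 1.93. They were led by cathepsin K (Ctsk, 5.18), cathepsin S (Ctss, 3.91), gelatinase A (Mmp2, 3.57), Slpi (2.97) and Timp3 (2.29), with macrophage elastase (Mmp12), which was well above background on 1 of the 3 Mφ-depleted arrays. In D21 rats depletion lowered 5 of 13. Mmp12 was well above background on none of the 3 Mφ-depleted arrays, and depletion lowered it by at least 17.99-fold (adjusted p = 0.000346 from limma). The others were Ctss (2.97), Slpi (2.76), Timp3 (2.52) and Cst3 (1.37), with a median of 0.83 over the 13. Mmp12 and Ctss are also known as products of Mφs.

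In Mφ-depleted cells 5 of 12 genes of that list were higher in D21 than in NP rats and 0 lower, with a median of 1.03. They were Mmp2 (3.27), Ctsk (3.04), Timp1 (1.61), Mmp14 (1.49) and Timp2 (1.03). The interaction called Ctsk (-4.07, adjusted p = 0.0074 from limma) and Mmp2 (-2.75, adjusted p = 0.00797 from limma), 2 of 13, with a median of -0.61.

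Likeness of pattern was measured as the root mean square difference of log2 levels, each centred on its mean over the 12 arrays, among 10936 genes well above background on every array. The genes nearest to Eln were Itga5 (0.23), which encodes a fibronectin receptor chain, Efcab4b (0.46), Timp1 (0.49), Lgals9 (0.51) and Pthlh (0.52), where the median over all genes was 1.25. Among the members Fbln5 was nearest to Eln (0.75) and Fbln2 next (0.82), of the 5 others on every array. The mean profile of the 6 members on every array was nearest to an expressed sequence with no gene symbol (0.21), Fgfr1 (0.26), St3gal2 (0.28), Fyn (0.36) and Pfn2 (0.37). Of the 36 pairs of the 9 tested members, Fbn1 and Loxl1 were the most alike (0.58), and Fbln2 and Loxl2 the least (2.15).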

How the data were processed

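The authors deposited 1-colour Agilent scanner files, with the processed intensity of each spot after background subtraction and not normalized between arrays. They also deposited a table of ratio values, each being an intensity over its array's 75th percentile, as set against the scanner values here, and the columns' medians lie between 0.08 and 0.12. Per the labels the software was Agilent Feature Extraction. The 12 arrays were spread over 4 slides and 3 scan days. Mφ-depleted D21 rat 1 was alone on its slide and scan day, so a block for either takes it out of the estimate.

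Control and outlier spots were left out and spots of a probe averaged. Accessions matched 57.1% of 30367 probes to RefSeq names, and the brightest probe stood for a gene. A gene was tested where every array of at least 1 of the groups compared was well above background. Tests were limma 3.58.1 (lmFit and eBayes on all 12 arrays without covariates, R 4.3.3) with Benjamini-Hochberg adjustment, and the code was tested on simulated data. Each array is 1 rat, so p-values measure the spread between rats. Tables and plots were made with Python 3.11.15.

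The members, marker lists and pathway lists were chosen with earlier results of these data known. The text names the 10 members, up to 6 called genes per direction of each pathway list (those that changed most), Cd68, Csf1r, Adgre1 and the 5 genes nearest to each profile. Marker lists hold 15 Mφ, 10 fibroblast, 10 smooth muscle, 10 epithelial, 10 endothelial, 8 housekeeping and 10 immediate-early genes. Of the endothelial list 3 genes were called lower after depletion in D21 rats, and 2 lower and 1 higher in NP rats. Differences of housekeeping genes ran from -0.86 to 1.38 over both depletion comparisons, none called. Alternatives were the test named in the Methods (with unequal variances), limma on both compared groups only, an adjusted threshold, normexp (offset 50), quantile scaling, a percentile over probes detected on every array, the authors' values, 2 other filters, the mean of a gene's probes, array weights, blocks for slide or for scan day, and leaving out each rat.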

Additional observations from a re-analysis of the deposited data

Results flagged for a closer look

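Emilin1 lost more transcript with bead separation in NP than in D21 rats, with a difference between the states of -2.49 on the log2 scale in the interaction test (adjusted p = 0.0205 from limma). It fell in 3 of 3 Mφ-depleted NP rats below all whole NP rats, and the dimmer probe gave -1.29 (adjusted p = 0.214). Lox did the same, with -3.11 (adjusted p = 0.0404 from limma), and every Mφ-depleted rat lay below every whole rat in both states. Its probe was well above background on 2 of the 3 Mφ-depleted NP arrays, so the size for Lox is uncertain. Over the alternatives the adjusted p ranged from 0.00115 to 0.113 for Emilin1 and from 0.00915 to 0.192 for Lox. The interaction also called 7 of 10 fibroblast and 6 of 10 smooth muscle markers in this direction. Groups of 3 were too small for a test of single outlying rats.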

How the results depend on the processing

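Of 912 values of single members recomputed under an alternative, 799 kept direction and call, 64 lost the call, 27 gained one and 22 changed sign. With the test of the Methods, members called higher in whole cervix numbered 0 in D21 rats, and members higher in Mφ-depleted D21 than Mφ-depleted NP cervix 1. After Benjamini-Hochberg adjustment that test left 3 in the NP depletion comparison and 0 in every other comparison between groups. Averaging the probes of a gene left 0 members lower in whole D21 than whole NP cervix. In the D21 depletion comparison the count fell from 4 to 1 with slide and 2 with scan day as a block. Requiring detection on all 12 arrays, which tests fewer genes, gave 3 members higher in Mφ-depleted D21 cervix and 2 for the interaction. Those 2 were Emilin1 and Fbln1, since Lox, Loxl1 and Loxl2 were then not tested. The adjusted threshold also gave 2 for the interaction, Emilin1 and Lox. Leaving out 1 rat gave 0 to 1 members lower and 1 higher in whole D21 cervix, 2 to 5 higher in the D21 and 7 to 8 in the NP depletion comparison, 5 to 7 higher in Mφ-depleted D21 cervix and 3 to 5 for the interaction.

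Signs changed for small or uncalled differences and for Lox. With slide as a block, Fbn1 between the whole groups was -0.24, and in the D21 depletion comparison Lox was -0.11 and Loxl2 -1.14. No slide held both groups of that D21 comparison. Normexp gave -0.085 for Fbln2 in the NP depletion comparison. The Eln interaction was -0.10 with normexp, -0.63 with slide, -0.084 with scan day and -0.31 with array weights. Leaving out 1 rat, it ran from -0.56 to 0.36, Fbln1 between the whole groups from -0.39 to 0.064, Loxl2 there from -1.13 to 0.38, Emilin1 in the D21 depletion comparison from -0.016 to 0.70 and Fbln2 in the NP one from -0.14 to 0.24. The cause was not tested.

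Over all genes, 1431 higher and 1103 lower calls in the D21 depletion comparison became 2216 and 2383 without Mφ-depleted D21 rat 4. The percentile over probes detected on every array moved the median of all genes from -0.06 to 0.13 there and from 0.02 to -0.14 between the Mφ-depleted groups, and the share of calls that were higher from 56.5% to 70.1% and from 72.6% to 58.2%. Normexp moved that share from 63.5% to 76.3% between the whole groups. Between the Mφ-depleted groups leaving out 1 rat gave up to 1334 higher and 1118 lower calls, from 731 and 276. Over all alternatives, left-out rats included, the higher calls ranged from 0 to 1215 between the whole groups, 8 to 2216 in the D21 and 465 to 2276 in the NP depletion comparison, and 0 to 1334 between the Mφ-depleted groups. Signal near background limits Fbn2, Lox, Loxl1 and Loxl2. No paired analysis was possible because each array is a different rat and the groups compared share fewer than 2 rat numbers.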
